A study of Homo sapiens with 9 samples.

Results

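The comparison of 1 µg/ml with 0.5 µg/ml insulin in KGN cells was described gene by gene. KGN is an established human granulosa cell tumour line that serves as a model of the hormone-producing cells around the oocyte. Of the 15983 genes in the count table, 12585 had at least 10 counts in 3 or more of the 6 insulin libraries and make up the comparison. The other 3398 genes fell under this minimum, and 301 of them had 0 counts in all 6 libraries. All cells carry the label wild type, were grown in medium with fetal bovine serum, were fasted for 12 h and were then kept for 72 h with solvent (control), 0.5 µg/ml insulin (the lower dose) or 1 µg/ml insulin (the higher dose). Each group holds 3 libraries of total RNA, named here by group and replicate number. Whether the replicates were separate cultures is not stated in the labels, and the p-values reflect the spread of these libraries, part or all of which may be technical. The control libraries entered the estimate of the spread, and their values are given beside the doses as background.

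Insulin binds the insulin receptor and, at high concentrations, also the related receptor of insulin-like growth factor 1. Both receptors phosphorylate adaptor proteins (IRS1, IRS2) that switch on PI3 kinase and AKT, which in turn activate the growth kinase complex mTORC1 and keep FOXO transcription factors out of the nucleus. FOXO factors otherwise drive genes such as IRS2 and IGFBP1, while insulin is known to raise the transcription of cholesterol and fatty acid synthesis genes through SREBP factors. In granulosa cells insulin acts beside FSH on steroid synthesis. The question here is whether RNA levels differed further when an already high dose was raised.

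The 6 insulin libraries held between 19508466 and 20422534 counts. Levels are given as CPM, the share of a library's counts on the usual scale, after scaling with the trimmed mean of M-values (TMM). Lower dose replicate 1 stood apart from its group: its chi-square statistic per degree of freedom was 8.02 and 8.48 against the other lower dose libraries, which differed from each other by 2.18, while higher dose pairs gave 2.62 to 5.29. Results that rest on this library are therefore also given without it, and lists with several members of small p are given with the range obtained by leaving out each of the 6 insulin libraries in turn. Named genes are those that the rule in the methods picks, and other members named for their known place in a pathway were chosen after their values were seen. The labelled cell type was checked on markers in the 6 libraries. FOXL2, a transcription factor of the granulosa lineage, was measured at 29.5, 24.7 and 25.0 CPM at the lower dose and 24.7, 25.5 and 28.2 CPM at the higher dose, FSHR, the FSH receptor, at 16.1, 16.6 and 18.2 CPM at the lower dose and 17.6, 19.5 and 21.4 CPM at the higher dose, and CYP19A1, which encodes aromatase, at 6.53, 8.27 and 8.27 CPM at the lower dose and 8.05, 9.53 and 8.24 CPM at the higher dose. LHCGR had 0 counts, AMHR2 24 and ESR2 25 over the 6 libraries. Of listed markers of other cells, 4 of 19 blood and immune genes, 3 of 10 endothelial genes, 5 of 9 theca genes, 10 of 14 fibroblast and smooth muscle genes and 14 of 20 epithelial genes were tested. EPCAM, PECAM1, HBB and CYP17A1 had 6, 39, 1 and 1 counts over the 6 libraries, but other members of these lists were expressed. The summed level of the tested epithelial genes ran from 2232 to 2417 CPM at the lower dose and from 2308 to 2428 CPM at the higher dose. That of the tested endothelial genes ran from 711.7 to 816.9 and from 717.3 to 754.5 CPM. The summed level of the blood and immune list ran from 115.7 to 121.4 CPM at the lower dose and from 107.2 to 124.7 CPM at the higher dose, and that of the theca list from 517.4 to 675.8 and from 594.8 to 625.6 CPM. In bulk RNA, fewer cells of a type and less RNA per cell cannot be told apart.

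No gene passed the test between the doses in either direction. The edgeR quasi-likelihood F-test called 0 of 12585 genes higher (0%) and 0 lower (0%) at a Benjamini-Hochberg adjusted p under 0.05, and the smallest adjusted p was 0.853. At an unadjusted p under 0.05 stood 716 genes, which is 5.69% of those tested, with 317 (2.52%) higher and 399 (3.17%) lower at the higher dose. DESeq2 likewise called 0 genes and placed 492 under an unadjusted p of 0.05. In 1538 genes (12.2%) the 3 values at each dose did not overlap, with 755 higher and 783 (6.22%) lower at the higher dose. Log2 fold changes, always higher minus lower dose, were above 0 in 49.9% and below 0 in 50.1% of genes. With library totals in place of TMM, 455 genes were higher and 279 lower at an unadjusted p under 0.05, and 55.5% of genes stood above 0, since the median moved by 0.012. Over the whole profile the dose took up 20.6% of the variance between the 6 libraries, with an exact permutation p of 0.50 over the 10 partitions, where 0.10 is the smallest possible value.

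The precision behind these counts was high for all but scarce RNAs. The 95% interval of the difference lay within 1.5-fold in either direction for 88.1% of genes and within 2-fold for 96.0%. Among the 7367 genes between 10 and 100 CPM this share for 1.5-fold was 99.9%, and among the 2117 genes over 100 CPM it was 100%. For the 2540 genes between 1 and 10 CPM it was 63.4%, and for the 561 genes under 1 CPM it was 0%. Among 9484 genes of at least 10 CPM, 1 had an estimate beyond 1.5-fold, the CD99 entry described further on. Leaving out lower dose replicate 1 gave 946 genes at an unadjusted p under 0.05 and 2 called genes, both lower at the higher dose. These were NDRG1, a hypoxia and stress gene, at 117, 165 and 163 CPM at the lower dose and 123, 128 and 131 CPM at the higher dose, and TRIM22, an interferon-induced antiviral gene, at 100.4, 155 and 146 CPM at the lower dose and 117, 116 and 110.4 CPM at the higher dose. In both, lower dose replicate 1 lay below the higher dose libraries and the other lower dose libraries lay above them. The log2 fold changes without it were -0.36 and -0.39, each with an adjusted p of 0.0052 (edgeR).

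**Figure D1:**
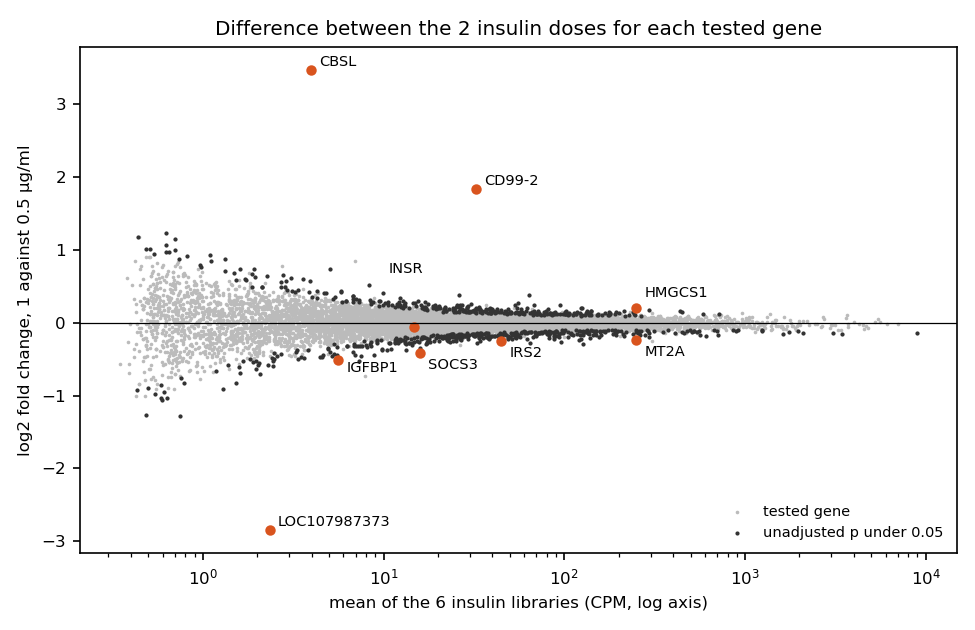
Log2 fold change between the doses (vertical axis, 1 against 0.5 µg/ml) against the mean level of the 6 insulin libraries (horizontal axis, CPM, log scale) for the 12585 tested genes, with the 716 genes at an unadjusted p under 0.05 in dark grey and named genes in orange. The cloud over all genes is centred on 0 and narrows as the level increases, and CD99-2, CBSL and LOC107987373 stand far outside it. At an unadjusted p under 0.05, 56 genes over 100 CPM were higher and 102 lower, against 187 and 219 between 10 and 100 CPM.

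The receptors that bind insulin were measured at similar levels at both doses. INSR, the insulin receptor (chr19:7112255-7294034, GRCh38, minus strand), was measured at 16.0, 14.3 and 14.8 CPM at the lower dose and 14.3, 12.9 and 15.8 CPM at the higher dose. Its values overlapped between the doses, with a log2 fold change of -0.066 ± 0.099 (SE) and a 95% interval of 0.827 to 1.10-fold. IGF1R, the receptor of insulin-like growth factor 1, was measured at 73.5, 63.7 and 63.2 CPM at the lower dose and 66.1, 61.4 and 66.2 CPM at the higher dose, a log2 fold change of -0.050 ± 0.063 with an interval of 0.882 to 1.06-fold. Per length of transcript, IGF1R stood at 4.90 ± 0.303 FPKM and INSR at 1.55 ± 0.117 FPKM over the 6 libraries (SD, n = 6). The adaptor IRS1 was measured at 19.8, 16.9 and 18.1 CPM at the lower dose and 18.1, 18.6 and 19.2 CPM at the higher dose, with an interval of 0.901 to 1.15-fold. None of these intervals reaches 1.5-fold, and the direction of each of the 3 estimates turned when single libraries were left out.

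IRS2, the second main adaptor (chr13:109752698-109786568, minus strand), was the member of the receptor and adaptor list with the smallest p. It was measured at 49.0, 50.6 and 46.3 CPM at the lower dose and 43.9, 38.6 and 40.5 CPM at the higher dose, against 47.2, 51.6 and 41.7 CPM in control. The lower dose values all lay above the higher dose values, and the control values spanned both. The log2 fold change was -0.25 ± 0.076, with an interval of 0.756 to 0.941-fold, an unadjusted p of 0.0041 and an adjusted p of 0.853 (edgeR). Of the 14 tested members of the list (17 listed), 5 stood above 0 with a median of -0.030, and IRS2 was the single member at an unadjusted p under 0.05 (5.69% of all genes were). The promoter of IRS2 is shown because the gene is a known FOXO target and its values separate by dose. These are the 120 bases before the start of transcription in the RefSeq annotation of GRCh38.p14, chr13:109786584-109786703 on the minus strand, with capitals on the match to CAAAACA, the core of the FOXO insulin response element, read here on the opposite strand.
IRS2 promoter: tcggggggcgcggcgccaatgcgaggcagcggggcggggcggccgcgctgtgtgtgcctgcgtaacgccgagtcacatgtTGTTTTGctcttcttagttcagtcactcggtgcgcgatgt
The match begins 40 bases before the start. CAAAACA on either strand occurred in 4.30% of 35116 promoters over 250 bases before the start, and a match is a description of the letters, not evidence of binding.

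Downstream of the adaptors, 30 listed components of the PI3 kinase, AKT and mTOR pathway were tested. Of these 14 stood above 0, the median was -0.016, and 1 was at an unadjusted p under 0.05. That member was EIF4EBP1, a translation repressor that mTORC1 inactivates, with 96.4, 92.1 and 91.5 CPM at the lower dose and 89.6, 83.6 and 83.6 CPM at the higher dose and a log2 fold change of -0.12 ± 0.051. PIK3CA, a catalytic subunit of PI3 kinase, was measured at 21.1, 21.8 and 21.4 CPM at the lower dose and 23.5, 22.2 and 23.8 CPM at the higher dose. RPTOR, the mTORC1 scaffold, had overlapping values with a log2 fold change of -0.15 ± 0.079. The kinases AKT1, AKT2 and MTOR differed by -0.053 ± 0.046, -0.046 ± 0.054 and -0.022 ± 0.050 on the log2 scale. Among 14 members of the RAS and MAPK list 5 stood above 0 and none was at an unadjusted p under 0.05.

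Of 22 feedback inhibitors of receptor signalling, 10 stood above 0 and 2 were lower at an unadjusted p under 0.05 (3.17% of all genes were). SOCS3 (chr17:78356778-78360077, minus strand), which is induced by cytokine and insulin signalling and blocks the receptors in turn, was measured at 19.2, 16.5 and 18.8 CPM at the lower dose and 13.6, 11.6 and 15.8 CPM at the higher dose. All 3 higher dose libraries lay below all 3 lower dose libraries, and the control mean lay between, with 15.8, 16.0 and 14.2 CPM. The log2 fold change of -0.41 ± 0.10 corresponds to an interval of 0.647 to 0.875-fold, with an unadjusted p of 0.00085 and an adjusted p of 0.853. TRIB3, a pseudokinase that binds AKT, was measured at 111, 116 and 109 CPM at the lower dose and 111, 96.7 and 86.2 CPM at the higher dose, where higher dose replicate 1 lay within the lower dose range. SOCS1 was at -0.29 ± 0.17 and SOCS2 at 0.11 ± 0.12 on the log2 scale, both with overlapping values. The RAS pathway inhibitor SPRED1 lay the other way, with 32.3, 34.2 and 32.9 CPM at the lower dose and 36.1, 36.3 and 35.4 CPM at the higher dose.

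Binding proteins that hold insulin-like growth factors outside the cell were lower at the higher dose in most cases. Of 12 listed binding proteins and their proteases, all tested, 3 stood above 0 (49.9% of all genes did), and 3 were lower at an unadjusted p under 0.05 (3.17% of all genes were), each with no overlap (6.22% of all genes were lower with none). IGFBP1 (chr7:45888357-45893668, plus strand), whose transcription insulin is known to repress, was measured at 6.58, 6.57 and 6.64 CPM at the lower dose and 5.20, 4.92 and 3.80 CPM at the higher dose. The lower dose libraries lay close together and every higher dose library lay below them, while control ran over 6.98, 5.93 and 4.19 CPM and spanned both doses. Its log2 fold change was -0.51 ± 0.17, with an interval of 0.548 to 0.901-fold. IGFBP6, which prefers IGF2, was measured at 35.9, 35.5 and 35.0 CPM at the lower dose and 30.0, 33.0 and 31.6 CPM at the higher dose. IGFBP7, a secreted relative that binds these factors weakly, was far more abundant, at 2077, 1961 and 2074 CPM at the lower dose and 1936, 1906 and 1807 CPM at the higher dose. The protease PAPPA2 had a log2 fold change of -0.36 ± 0.18 with overlapping values, IGFBP5 -0.00041 ± 0.051 and IGFBP2 0.044 ± 0.15. The mean score of the list, the average log2 CPM of the members once every gene was centred on the 9 libraries, was 0.048, 0.077 and 0.060 at the lower dose, -0.017, -0.041 and -0.081 at the higher dose and 0.0059, -0.004 and -0.048 in control. The median of the list, -0.077 over all libraries, ran with single libraries left out from -0.058 without higher dose replicate 3 to -0.12 without higher dose replicate 1, and the count of members lower at an unadjusted p under 0.05 from 1 without higher dose replicate 3 to 4 without lower dose replicate 1 or higher dose replicate 1.

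FOXO factors and genes known as FOXO targets were tested for 25 of 28 symbols, and 10 stood above 0 with a median of -0.045. At an unadjusted p under 0.05 were 4 members, each lower at the higher dose (3.17% of all genes were). They were IRS2 and IGFBP1, given above, SESN2, a stress-induced inhibitor of mTORC1, at 45.0, 53.3 and 51.3 CPM at the lower dose and 42.4, 44.9 and 38.5 CPM at the higher dose, and SOD2, the mitochondrial superoxide dismutase, whose values overlapped, at 504, 641 and 636 CPM at the lower dose and 524, 549 and 508 CPM at the higher dose. The factors themselves had log2 fold changes of 0.095 ± 0.10 (FOXO1), 0.0089 ± 0.055 (FOXO3) and -0.045 ± 0.11 (FOXO4). Of other classical targets, TXNIP at 0.018 ± 0.066, BCL6 at -0.022 ± 0.084 and CCNG2 at 0.023 ± 0.079 lay within 1 SE of 0, and PDK4 was at 0.25 ± 0.14. Single libraries left out in turn moved the median of the list from -0.014 without lower dose replicate 3 to -0.067 without higher dose replicate 3, and the count of members lower at an unadjusted p under 0.05 from 2 without higher dose replicate 3 to 6 without lower dose replicate 1 or higher dose replicate 1. PCK1 and G6PC, the target genes of gluconeogenesis, matched no row of the table and were not analysed here.

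Cholesterol synthesis genes lay higher at the higher dose in most cases. Of 27 listed genes for the synthesis and uptake of cholesterol, 26 were tested and 22 stood above 0, with a median of 0.070. At an unadjusted p under 0.05 were 5, all higher (2.52% of all genes were), and in 9 the doses did not overlap, all higher (12.2% of all genes did not, in either direction). HMGCS1, a synthase at the start of the mevalonate pathway, was measured at 238, 220.2 and 235 CPM at the lower dose and 246, 274 and 282 CPM at the higher dose, a log2 fold change of 0.21 ± 0.070. IDI1, the isomerase of isopentenyl diphosphate, was measured at 81.2, 68.4 and 75.8 CPM at the lower dose and 83.0, 86.3 and 82.5 CPM at the higher dose. In both genes every higher dose library lay above every lower dose library, and the lowest value belonged to lower dose replicate 2.

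Other steps of the cholesterol pathway were measured with similar precision. The later enzymes MSMO1 and HSD17B7 had log2 fold changes of 0.14 ± 0.056 and 0.28 ± 0.12, FDPS 0.085 ± 0.044, CYP51A1 0.088 ± 0.048 and DHCR7 0.023 ± 0.064. SQLE, a rate-limiting enzyme of the later steps, lay at -0.015 ± 0.062 with overlapping values. The regulators SREBF2, SCAP and INSIG1 were at 0.044 ± 0.047, -0.022 ± 0.057 and 0.15 ± 0.078. The list score was 0.071, -0.11 and -0.057 at the lower dose and 0.014, 0.058 and 0.057 at the higher dose, so that lower dose replicate 1 lay above all higher dose libraries. Control scored -0.063, -0.028 and 0.063, a range that covered all 3 higher dose libraries. When single libraries were left out, the median ran from 0.026 without lower dose replicate 2 to 0.12 without lower dose replicate 1, and the count of members higher at an unadjusted p under 0.05 from 2 without lower dose replicate 2 or higher dose replicate 2 to 16 without lower dose replicate 1. Members above 0 numbered 16 of 26 without lower dose replicate 2 and 25 of 26 without lower dose replicate 1. No member passed the adjusted threshold with or without lower dose replicate 1.

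Fatty acid and lipid synthesis genes shared this direction with smaller differences. Of 22 tested members 20 stood above 0, the median was 0.055, 2 were higher at an unadjusted p under 0.05 (2.52% of all genes were) and 5 did not overlap, all higher (12.2% of all genes did not, in either direction). ACSL3, which activates long-chain fatty acids on lipid droplets, was measured at 108, 109 and 106 CPM at the lower dose and 118, 118 and 118 CPM at the higher dose. ME1, the malic enzyme that supplies NADPH, was measured at 66.4, 64.4 and 63.4 CPM at the lower dose and 71.4, 67.9 and 70.6 CPM at the higher dose. SCD, the desaturase that makes oleate, was measured at 700.1, 657 and 689 CPM at the lower dose and 689, 763 and 759 CPM at the higher dose, with overlap. The central synthases showed little: FASN lay at 0.029 ± 0.098, ACACA at 0.017 ± 0.048, ACLY at 0.040 ± 0.049 and the regulator SREBF1 at -0.026 ± 0.053 on the log2 scale. Leave-one-out medians ran from 0.032 without higher dose replicate 2 to 0.088 without lower dose replicate 1, and the count of members higher at an unadjusted p under 0.05 from 0 without lower dose replicate 3 or higher dose replicate 3 to 6 without lower dose replicate 1. For fatty acid oxidation and lipid breakdown 13 of 19 members stood above 0, with a median of 0.030, which turned to -0.011 without lower dose replicate 1.

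For glucose transport and glycolysis 5 of 25 members stood above 0, with a median of -0.050 and 4 members lower at an unadjusted p under 0.05 (3.17% of all genes were). PFKL, a subunit of the phosphofructokinase that commits glucose to glycolysis, was measured at 194, 208 and 202 CPM at the lower dose and 183, 187 and 180.2 CPM at the higher dose. PFKFB3, which makes the activator of that enzyme, was measured at 116, 141 and 144 CPM at the lower dose and 120.3, 121 and 123 CPM at the higher dose, and SLC2A1, the main glucose transporter of growing cells, at 86.1, 100.3 and 93.1 CPM at the lower dose and 89.9, 79.7 and 77.5 CPM at the higher dose, both with overlap. SLC2A4, the insulin-responsive transporter, had 15 counts over the 6 libraries and was not tested. With 1 library left out the median ran from -0.019 without lower dose replicate 2 to -0.10 without lower dose replicate 1, and the count of members lower at an unadjusted p under 0.05 from 0 without lower dose replicate 2 or higher dose replicate 3 to 13 without lower dose replicate 1. Members above 0 then numbered 11 of 25 without lower dose replicate 2.

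Steroid synthesis, a defining function of granulosa cells, showed no difference that passed the test. Of 26 listed genes 20 were tested, 13 stood above 0 and the median was 0.075. At an unadjusted p under 0.05, 0 were higher and 2 lower, FDXR and TSPO (2.52% and 3.17% of all genes were). STAR, which carries cholesterol into mitochondria, was measured at 27.0, 26.8 and 28.9 CPM at the lower dose and 22.7, 32.4 and 33.4 CPM at the higher dose. CYP11A1, which cleaves the side chain of cholesterol, was measured at 6.13, 7.65 and 6.99 CPM at the lower dose and 6.45, 5.41 and 7.25 CPM at the higher dose, and CYP19A1 had a log2 fold change of 0.16 ± 0.14 with an interval of 0.917 to 1.37-fold. The values of all 3 overlapped between the doses. FDXR, the reductase that feeds electrons to CYP11A1, was measured at 29.9, 34.8 and 35.2 CPM at the lower dose and 28.2, 28.2 and 32.3 CPM at the higher dose, and TSPO, an outer mitochondrial membrane protein, at 149.7, 149.6 and 157 CPM at the lower dose and 142, 144 and 136 CPM at the higher dose, the latter with no overlap. SRD5A1, which reduces steroids at the 5α position, was measured at 31.1, 27.7 and 29.8 CPM at the lower dose and 31.7, 32.5 and 33.4 CPM at the higher dose. HSD3B2 had 25 counts and HSD3B1 5 over the 6 libraries.

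Granulosa markers and hormone receptors had 14 of 20 tested members above 0, a median of 0.050 and none at an unadjusted p under 0.05. AMH, the anti-Müllerian hormone, was measured at 13.9, 13.1 and 9.45 CPM at the lower dose and 12.2, 12.7 and 14.0 CPM at the higher dose, with the lowest value in lower dose replicate 3. FSHR had a log2 fold change of 0.20 ± 0.12 and an interval of 0.973 to 1.36-fold, and FOXL2 -0.014 ± 0.085 and 0.875 to 1.12-fold. NR5A1, the steroidogenic factor SF-1, was measured at 66.1, 64.1 and 65.0 CPM at the lower dose and 63.0, 60.1 and 58.7 CPM at the higher dose, where the groups did not overlap. Its relative NR5A2 was scarce, at 0.854, 0.565 and 0.787 CPM at the lower dose and 0.750, 1.29 and 1.18 CPM at the higher dose, and its interval of 0.916 to 2.32-fold leaves room for a difference of 2-fold.

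Immediate early genes, which growth factors switch on within minutes, were lower at the higher dose for most members after the 72 h. Of 28 tested, 5 stood above 0, the median was -0.066, 7 were lower and 1 higher at an unadjusted p under 0.05 (3.17% and 2.52% of all genes were). JUNB, a subunit of AP-1, was measured at 57.1, 53.9 and 54.3 CPM at the lower dose and 47.1, 49.8 and 44.5 CPM at the higher dose, and control lay near the higher dose at 47.3, 45.6 and 48.6 CPM. JUNB lies beside HOOK2 on the opposite strand, and the strand setting of the counting is not given in the sources used here. KLF4, a zinc finger factor of growth arrest, was measured at 10.1, 13.4 and 12.1 CPM at the lower dose and 10.0, 8.99 and 8.44 CPM at the higher dose. KLF2, a related factor, was measured at 116, 104 and 92.8 CPM at the lower dose and 97.3, 82.0 and 82.3 CPM at the higher dose, where higher dose replicate 1 lay above lower dose replicate 3. NR4A2, an orphan nuclear receptor, was the member on the higher side, with 1.46, 1.54 and 1.67 CPM at the lower dose and 2.50, 1.94 and 2.12 CPM at the higher dose. The classical members FOS, EGR1, JUN and MYC had log2 fold changes of -0.065 ± 0.24, -0.019 ± 0.12, -0.068 ± 0.050 and -0.0099 ± 0.060. The list score was 0.043, 0.081 and 0.040 at the lower dose and -0.060, 0.015 and -0.031 at the higher dose, with no overlap, while control ran over -0.071, 0.073 and -0.090. Among the 39 lists with 5 or more tested members, 2 had scores with no overlap, this one and the IGF binding proteins. The median of the members ran, leaving out 1 library at a time, from -0.048 without higher dose replicate 3 to -0.089 without lower dose replicate 3, and the count of members lower at an unadjusted p under 0.05 from 5 without lower dose replicates 2 and 3 or higher dose replicates 2 and 3 to 8 without lower dose replicate 1.

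Genes of inflammation mostly lay below 0. In the NF-kappaB and cytokine list 6 of 25 tested members stood above 0, the median was -0.091, 7 were lower at an unadjusted p under 0.05 (3.17% of all genes were) and 8 were lower with no overlap (6.22% of all genes were). NFKBIB, an inhibitor that holds NF-kappaB in the cytoplasm, was measured at 14.4, 13.7 and 15.7 CPM at the lower dose and 12.5, 11.4 and 11.8 CPM at the higher dose, and NFKB2, a subunit, at 107, 116 and 123 CPM at the lower dose and 99.9, 106 and 104 CPM at the higher dose. ICAM1, an adhesion molecule, was measured at 30.8, 39.8 and 37.4 CPM at the lower dose and 31.5, 29.4 and 28.2 CPM at the higher dose, where lower dose replicate 1 lay with the higher dose. RELA and RELB were at -0.12 ± 0.051 and -0.17 ± 0.069, while the cytokines IL6, CXCL8 and CXCL1 had overlapping values at -0.13 ± 0.13, -0.071 ± 0.11 and -0.081 ± 0.093 on the log2 scale. For this list the leave-one-out median ran from -0.071 without higher dose replicate 3 to -0.17 without lower dose replicate 1, and the count of members lower at an unadjusted p under 0.05 from 4 without lower dose replicates 2 and 3 or higher dose replicate 3 to 8 without lower dose replicate 1.

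Interferon response genes had 2 of 43 members above 0, SAMD9L at 0.0087 ± 0.090 and TRIM21 at 0.0037 ± 0.076. The median was -0.10, 7 members were lower at an unadjusted p under 0.05 (3.17% of all genes were) and 4 were lower with no overlap (6.22% of all genes were). IRF7, the factor that amplifies interferon production, was measured at 37.8, 37.1 and 36.3 CPM at the lower dose and 36.6, 30.8 and 26.3 CPM at the higher dose. IRF1 was measured at 59.5, 72.7 and 68.6 CPM at the lower dose and 59.5, 61.6 and 51.6 CPM at the higher dose, and lower dose replicate 1 equalled higher dose replicate 1 to 3 digits. IRF9, which acts with STAT factors on interferon response elements, was measured at 75.0, 80.2 and 78.5 CPM at the lower dose and 71.2, 71.9 and 70.6 CPM at the higher dose, with no overlap; its GENCODE transcript is shared in full with an overlapping entry. The abundant effectors ISG15, IFI6 and MX1 had log2 fold changes of -0.25 ± 0.13, -0.099 ± 0.052 and -0.11 ± 0.088 with overlapping values, and STAT2 lay at -0.027 ± 0.048.

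The interferon score varied as much between replicates as between doses. It was -0.040, 0.18 and 0.085 at the lower dose, 0.086, -0.077 and -0.16 at the higher dose and 0.095, -0.0092 and -0.16 in control, so the groups overlapped. The score fell from replicate 1 to replicate 3 both in control and at the higher dose, while lower dose replicate 1 was the lowest of its group. The median of the list ran, on leaving out single libraries, from -0.056 without higher dose replicate 3 to -0.16 without lower dose replicate 1, and the count of members lower at an unadjusted p under 0.05 from 0 without higher dose replicate 3 to 23 without higher dose replicate 1. Members above 0 numbered 0 of 43 without lower dose replicate 1 and 11 of 43 without lower dose replicate 2. Genes of MHC class I and antigen processing, which interferon also drives, had 3 of 15 members above 0, and the peptide transporter TAP1 was measured at 280.1, 304 and 304 CPM at the lower dose and 279, 264 and 249 CPM at the higher dose. The promoter of IRF1 is shown as an example from this group. These are the 180 bases before its start in the RefSeq annotation of GRCh38.p14, chr5:132490774-132490953 on the minus strand, with capitals on the match to TTCNNNGAA, the palindrome that STAT factors bind.
IRF1 promoter: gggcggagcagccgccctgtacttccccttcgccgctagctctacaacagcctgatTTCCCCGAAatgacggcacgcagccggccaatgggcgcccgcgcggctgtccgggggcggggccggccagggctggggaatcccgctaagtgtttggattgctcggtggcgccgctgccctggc
The match begins 124 bases before the start, and 6.57% of 35116 promoters hold TTCNNNGAA within 250 bases before the start. No inference about STAT binding follows from it.

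**Figure D2:**
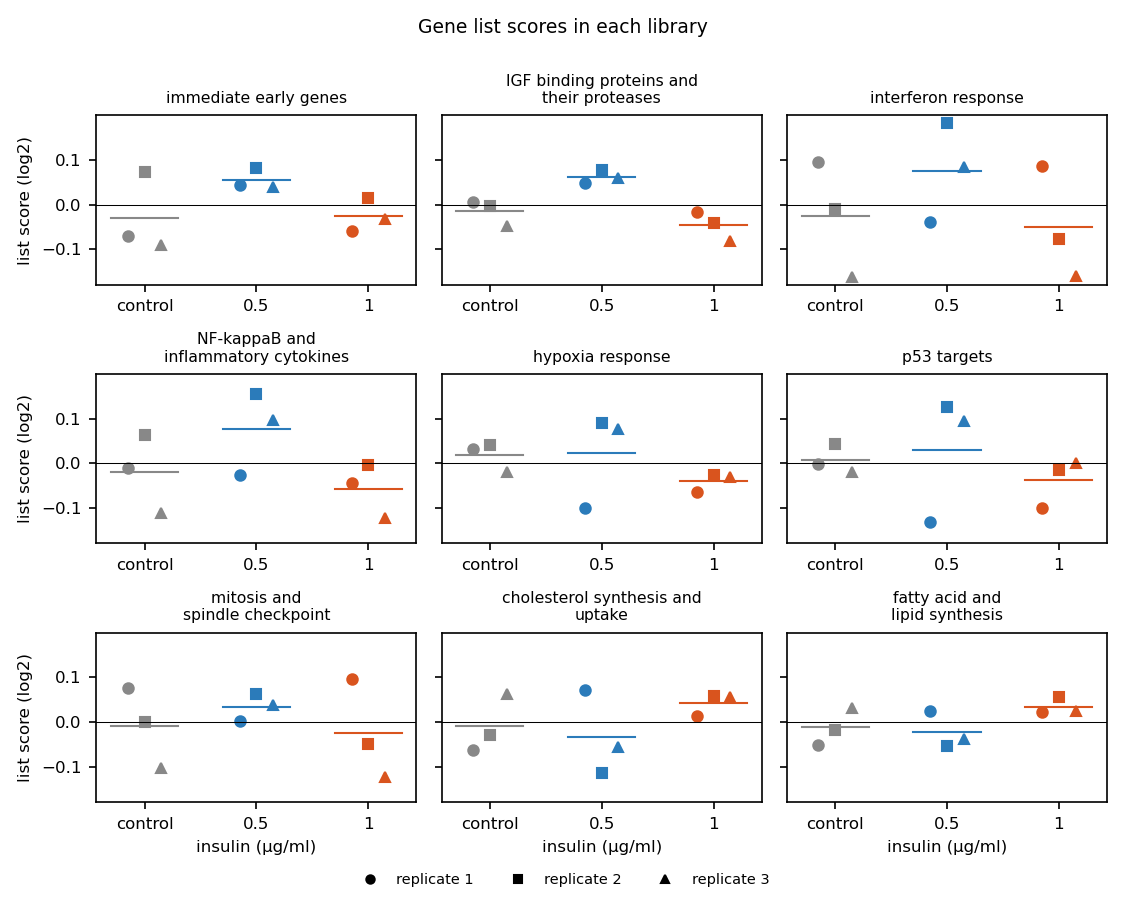
Score of 9 gene lists in each library (vertical axis, mean log2 CPM of the members, each gene centred on the 9 libraries) for control, 0.5 and 1 µg/ml insulin; symbols give the replicate number and lines the group mean. The immediate early and IGF binding protein scores do not overlap between the doses, while in the other panels at least 1 insulin library lies within the range of the other dose. The panels are a selection. Of all 39 lists with 5 or more tested members, these 2 alone had separated scores, both lower at the higher dose.

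Hypoxia genes had 7 of 28 members above 0, a median of -0.085 and 8 members lower at an unadjusted p under 0.05 (3.17% of all genes were). EPAS1, which encodes HIF-2α, was measured at 170.4, 160.1 and 161 CPM at the lower dose and 146, 153 and 151 CPM at the higher dose. VEGFA, the angiogenic growth factor, was measured at 218, 239.6 and 224 CPM at the lower dose and 218, 197 and 183 CPM at the higher dose, and LOX, a collagen cross-linking enzyme, at 3143, 3269 and 3197 CPM at the lower dose and 3086, 2897 and 2718 CPM at the higher dose. DDIT4, an mTORC1 inhibitor, was measured at 553, 698 and 677 CPM at the lower dose and 589, 575 and 538 CPM at the higher dose, with lower dose replicate 1 inside the higher dose range. HIF1A itself lay on the other side of 0, at 0.12 ± 0.069. The hypoxia score of lower dose replicate 1 was the lowest of the 6, at -0.10 in a group whose other libraries scored 0.090 and 0.077, and the higher dose scored -0.064, -0.026 and -0.031. On leaving out single libraries the median ran from -0.018 without lower dose replicate 3 to -0.14 without lower dose replicate 1, and the count of members lower at an unadjusted p under 0.05 from 2 without lower dose replicate 2 to 14 without lower dose replicate 1.

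Targets of p53 had 7 of 27 members above 0, a median of -0.075 and 4 members lower at an unadjusted p under 0.05 (3.17% of all genes were). SESN2 is one of them, and BBC3, which encodes the cell death protein PUMA, was measured at 44.3, 56.5 and 56.4 CPM at the lower dose and 43.5, 48.6 and 42.9 CPM at the higher dose. GDF15, a stress cytokine, was measured at 37.4, 41.3 and 42.5 CPM at the lower dose and 33.8, 37.0 and 36.1 CPM at the higher dose, with no overlap. The classical targets CDKN1A and MDM2 lay at -0.094 ± 0.097 and -0.016 ± 0.076. Over the fits with 1 library left out the p53 median ran from -0.013 without lower dose replicate 3 to -0.14 without lower dose replicate 1, and the count of members lower at an unadjusted p under 0.05 from 1 without lower dose replicates 2 and 3 to 14 without lower dose replicate 1. In the list of tRNA synthetases and the ATF4 response 6 of 28 stood above 0, with a median of -0.038. At an unadjusted p under 0.05, 5 were lower and 1 higher (3.17% and 2.52% of all genes were). The count of lower members ran from 1 without lower dose replicate 2 to 8 without lower dose replicate 1 or higher dose replicate 1. WARS1 was measured at 263, 288 and 282 CPM at the lower dose and 268, 243 and 229.6 CPM at the higher dose, while ATF4, ASNS and PSAT1 lay at -0.048 ± 0.043, -0.064 ± 0.063 and -0.077 ± 0.066. The unfolded protein response had 8 of 26 above 0, and none was at an unadjusted p under 0.05; its chaperone HSPA5 lay at -0.094 ± 0.058.

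Genes of cell division were taken by phase. In the mitosis list 5 of 34 members stood above 0, with a median of -0.065, and 2 were lower at an unadjusted p under 0.05 (3.17% of all genes were). CDC25B, a phosphatase that starts mitosis, was measured at 75.9, 72.2 and 73.8 CPM at the lower dose and 70.9, 62.5 and 61.6 CPM at the higher dose, and CENPA, the histone of centromeres, at 13.8, 13.1 and 15.9 CPM at the lower dose and 12.5, 11.8 and 11.8 CPM at the higher dose. MKI67, TOP2A and CCNA2 lay at -0.018 ± 0.055, -0.024 ± 0.052 and 0.00096 ± 0.051. The mitosis score of higher dose replicate 1 was the highest of all 9 libraries, at 0.097, against -0.050 and -0.12 in the other higher dose libraries. Its median ran, with 1 library left out, from -0.0092 without higher dose replicate 3 to -0.13 without higher dose replicate 1, and the count of members lower at an unadjusted p under 0.05 from 1 without lower dose replicate 3 or higher dose replicates 2 and 3 to 10 without higher dose replicate 1. For replication genes 21 of 39 stood above 0, with a median of 0.0087, which ran from -0.070 to 0.079 when single libraries were left out; the helicase subunit MCM6 was measured at 37.4, 33.7 and 32.9 CPM at the lower dose and 40.4, 37.0 and 41.2 CPM at the higher dose. CCND1, a cyclin that growth factors induce, was measured at 457, 459 and 432 CPM at the lower dose and 449, 419 and 374 CPM at the higher dose, and RB1, which the cyclin D kinases inactivate, at 68.5, 67.7 and 68.9 CPM at the lower dose and 79.8, 74.8 and 69.3 CPM at the higher dose.

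The protein synthesis apparatus, which mTORC1 promotes, differed little between the doses. Of the genes for cytosolic ribosomal proteins 27 of 56 stood above 0, with a median of -0.0044, their log2 fold changes ran from -0.086 to 0.063, and all 56 intervals lay within 1.5-fold. This even split rested on single libraries. Without lower dose replicate 1, 1 of 56 stood above 0 with a median of -0.041. Without lower dose replicate 3, 43 of 56 did, with a median of 0.032. In ribosome biogenesis 16 of 30 stood above 0, with a median of 0.00095, with NPM1, a nucleolar chaperone, at 435, 479 and 494 CPM at the lower dose and 483, 503 and 512 CPM at the higher dose, of whose transcript 50.3% is shared with a processed copy. All 30 intervals lay within 1.5-fold there too. Nuclear-encoded respiratory chain genes had 24 of 41 above 0, and COX7B, a subunit of cytochrome oxidase, was among the genes of smallest p, as given further on. Proteasome subunits had 14 of 33 above 0, and heat shock chaperones 10 of 20.

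Matrix genes were among the most abundant in these lists and lay slightly lower at the higher dose. Of 19 tested collagen chains 5 stood above 0, the median was -0.064, 4 were lower at an unadjusted p under 0.05 (3.17% of all genes were) and 6 were lower with no overlap (6.22% of all genes were). COL1A1, a chain of the main fibrillar collagen, was measured at 10241, 9030 and 8870 CPM at the lower dose and 8788, 8280 and 8559 CPM at the higher dose. COL4A2, a basement membrane chain, was measured at 1982, 1773 and 1741 CPM at the lower dose and 1728, 1687 and 1632 CPM at the higher dose, and COL6A2 at 993, 898 and 902 CPM at the lower dose and 856, 864 and 864 CPM at the higher dose. Lower dose replicate 1 was the highest of the 6 in all 3 genes. The collagen median ran, when single libraries were left out, from -0.027 without lower dose replicate 1 to -0.093 without lower dose replicate 2, and the count of members lower at an unadjusted p under 0.05 from 0 without lower dose replicate 1 or higher dose replicates 2 and 3 to 5 without lower dose replicate 3. COL3A1 lay on the other side, at 0.066 ± 0.066. Other matrix genes had 6 of 32 above 0, and YAP and TEAD targets 5 of 19.

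**Figure D3:**
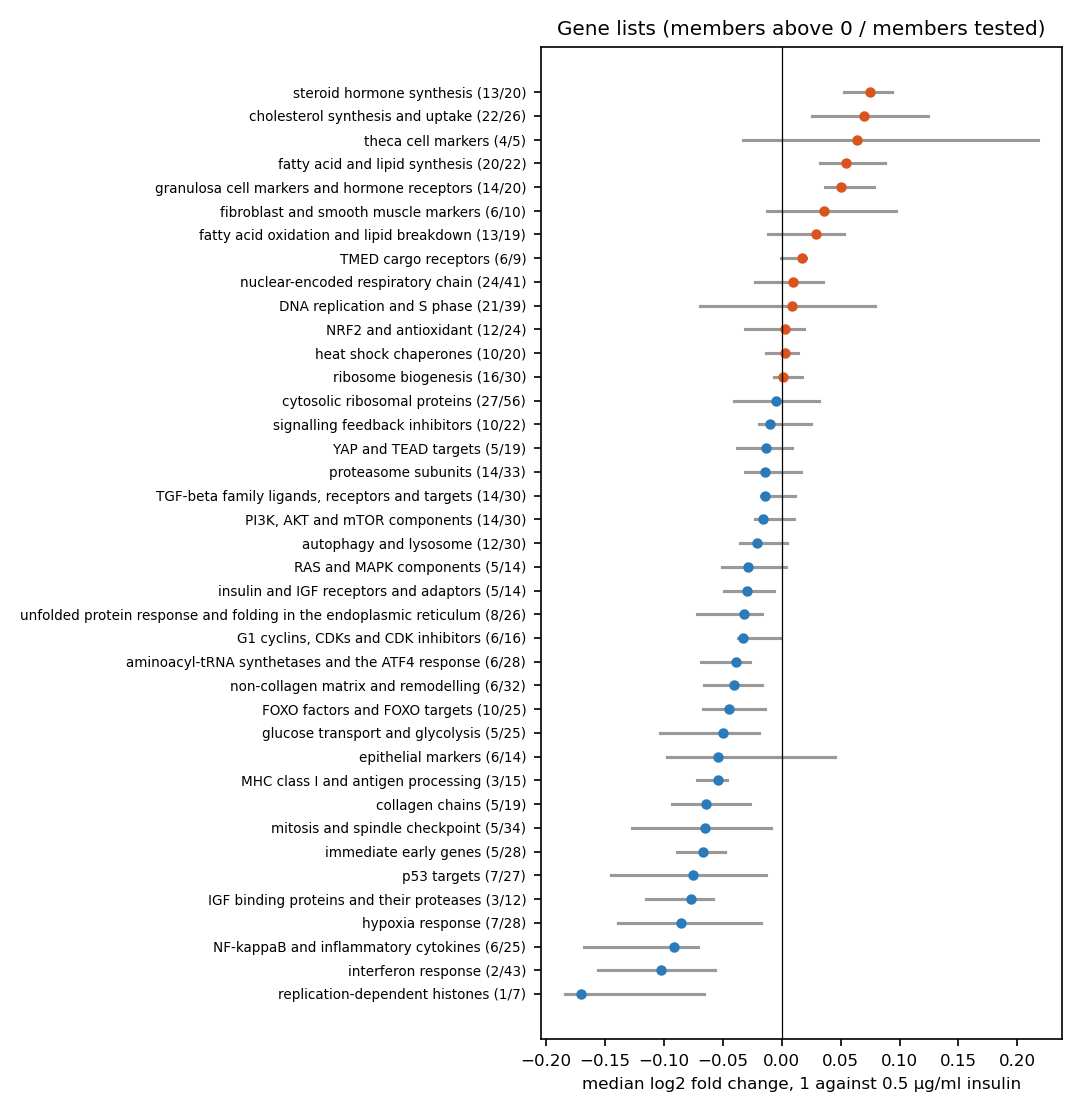
Median log2 fold change between the doses (horizontal axis, points) of the 39 lists with 5 or more tested members; grey lines span the medians when each of the 6 insulin libraries was left out in turn, and brackets give members above 0 and members tested. The medians run from -0.17 to 0.075, with 13 lists above 0 and 26 below.

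The genes of smallest p with at least 2 CPM and no overlap were listed for each direction, 12 each. Their difference chose them, so the values are a description. Lower at the higher dose came first NEURL1B, a ubiquitin ligase of Notch ligands (chr5:172641266-172691540, plus strand), at 99.1, 98.6 and 101 CPM at the lower dose and 88.7, 86.0 and 86.1 CPM at the higher dose. The replicates of each dose lay close together, and control lay between at 93.8, 94.5 and 89.7 CPM; the unadjusted p was 0.00051 and the log2 fold change -0.19 ± 0.047. After SOCS3 followed HELZ2, a coactivator of nuclear receptors, at 316, 322 and 302 CPM at the lower dose and 285, 270.1 and 264 CPM at the higher dose, and INCENP, the scaffold of the Aurora B complex, at 78.4, 68.3 and 65.7 CPM at the lower dose and 65.0, 54.6 and 55.1 CPM at the higher dose. RRAD, a small GTPase first found in muscle of people with diabetes that lowers glucose uptake, was measured at 136, 137 and 143 CPM at the lower dose and 123, 118 and 100.2 CPM at the higher dose and in control at 132, 127 and 105 CPM. ULK2, an autophagy kinase, was measured at 30.7, 27.1 and 29.7 CPM at the lower dose and 24.8, 24.3 and 25.3 CPM at the higher dose. SCARF2, FBRS and YBX3 had log2 fold changes of -0.21 ± 0.057, -0.21 ± 0.062 and -0.15 ± 0.045; 60.8% of the YBX3 transcript is shared with its processed copy YBX3P1, so its counts are uncertain.

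MT2A, a metallothionein that binds zinc and copper, belongs to this group. It was measured at 252, 273 and 282 CPM at the lower dose and 237, 234 and 216 CPM at the higher dose, and control ran over 255, 235 and 209.9 CPM. Every higher dose library lay below every lower dose library, with a log2 fold change of -0.23 ± 0.062 and an interval of 0.778 to 0.931-fold. Metallothionein genes are switched on by metals and glucocorticoids, and the promoter is shown because it is dense in the first kind of element. The 250 bases before its start in the RefSeq annotation of GRCh38.p14, chr16:56608334-56608583 on the plus strand, are printed with capitals on matches to TGCACNC or TGCGCNC, the core of the metal response element, on either strand.
MT2A promoter: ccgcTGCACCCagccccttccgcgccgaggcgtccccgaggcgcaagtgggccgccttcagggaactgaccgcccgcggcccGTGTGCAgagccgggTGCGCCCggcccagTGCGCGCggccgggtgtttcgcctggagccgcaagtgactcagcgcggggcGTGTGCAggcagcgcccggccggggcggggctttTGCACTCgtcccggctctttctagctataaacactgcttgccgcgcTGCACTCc
There are 7 matches. At least 1 match occurred in 24.8% of 35116 promoters and 5 or more in 0.12%. Whether these elements bear on the level of MT2A was not tested.

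Higher at the higher dose came first HS2ST1, which sulfates heparan chains (chr1:86914648-87109998, plus strand), at 49.96, 51.7 and 51.1 CPM at the lower dose and 56.7, 60.0 and 59.6 CPM at the higher dose, with control close to the higher dose at 56.4, 56.5 and 57.8 CPM. THOC2, part of the mRNA export complex, was measured at 79.4, 74.7 and 74.8 CPM at the lower dose and 84.4, 85.2 and 90.9 CPM at the higher dose, and COX7B at 58.0, 55.6 and 60.7 CPM at the lower dose and 65.7, 67.1 and 67.3 CPM at the higher dose. SLC5A3, the inositol transporter, was measured at 52.1, 47.5 and 46.6 CPM at the lower dose and 59.6, 55.4 and 57.5 CPM at the higher dose; its gene lies within that of MRPS6. TMC3, a membrane channel family member, was scarcer, at 4.77, 3.08 and 3.44 CPM at the lower dose and 5.85, 6.06 and 7.01 CPM at the higher dose, and control at 4.07, 3.81 and 6.87 CPM spanned both doses. TMED7, a cargo receptor of the early secretory pathway, was measured at 62.1, 64.9 and 60.2 CPM at the lower dose and 79.4, 75.4 and 65.5 CPM at the higher dose, and 24.9% of its transcript is shared with a read-through transcript. SPP1, the secreted matrix protein osteopontin, was measured at 6.89, 5.85 and 7.77 CPM at the lower dose and 8.35, 10.3 and 10.7 CPM at the higher dose, with control at 5.97, 6.92 and 9.75 CPM. EML4, a microtubule protein, was measured at 116, 113 and 117 CPM at the lower dose and 123, 132 and 143 CPM at the higher dose. FAM171B, IFTAP, TSPAN8 and PCYOX1L had log2 fold changes of 0.25 ± 0.075, 0.40 ± 0.12, 0.39 ± 0.12 and 0.24 ± 0.074.

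**Figure D4:**
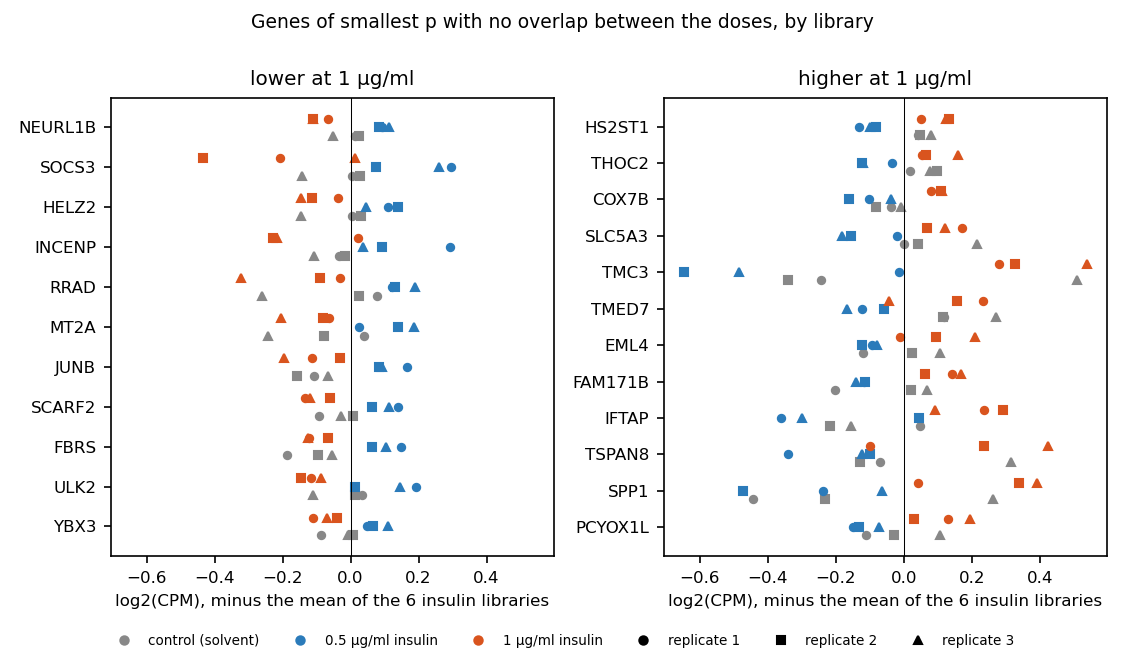
Log2 CPM in each library, minus the mean of the 6 insulin libraries (horizontal axis), for 12 genes higher and 11 genes lower among those of smallest p with no overlap between the doses; colour gives the group and symbol the replicate. Blue and orange points do not overlap by choice of the genes, and for the 11 plotted genes lower at 1 µg/ml the grey control mean lies nearer to the higher dose.

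Control took no part in the difference or the overlap between the doses, but it entered the scaling and the spread behind the p-values. Its position is therefore not fully independent of the choice of these genes. In the 12 lower genes the mean of control lay nearer to the higher dose in 12, and in the 12 higher genes in 6. Among all genes with no overlap, control lay nearer to the higher dose in 523 of 783 lower genes (66.8%) and 535 of 755 higher genes (70.9%), against 58.8% of all 12585 genes. In 1010 of these 1538 genes the control mean lay between the means of the doses, against 4522 of all 12585 genes. The 1538 genes were picked because their doses lie apart, which by itself makes a control mean between them more frequent. No conclusion is therefore drawn from this count. Lower dose replicate 1, which stood apart, enters the lower dose mean in each of these counts, and its part was not tested.

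The 4 largest folds in each direction among genes of at least 10 CPM were those of CD99-2, TSPAN8, PARM1 and NAALAD2 on the higher side and SOCS3, CBS, GATD3B and KLF4 on the lower side. Single libraries or near copies bear on CD99-2, CBS and GATD3B. CD99-2, a second entry for the adhesion molecule CD99, was measured at 25.1, 5.70 and 11.8 CPM at the lower dose and 142, 4.02 and 7.06 CPM at the higher dose, and in control at 15.2, 116 and 139 CPM. Higher dose replicate 1 and control replicates 2 and 3 were high and the rest low, so the level did not follow the dose. Its log2 fold change of 1.84 ± 0.88 turned to -1.36 without higher dose replicate 1. CBS, an enzyme of homocysteine metabolism, was measured at 12.2, 22.1 and 11.0 CPM at the lower dose and 11.6, 10.7 and 12.5 CPM at the higher dose, with lower dose replicate 2 alone high, and 96.5% of its transcript is shared with CBSL. CBSL had 0.302, 1.64 and 0.049 CPM at the lower dose, 10.0, 0.397 and 11.5 CPM at the higher dose and 0.370, 0.198 and 9.16 CPM in control, high in higher dose replicates 1 and 3 and in control replicate 3. GATD3B shares its whole transcript with GATD3A and was at -0.38 ± 0.19 with overlapping values. LOC107987373 had 1.91, 10.1 and 0.344 CPM at the lower dose and 0.700, 0.397 and 0.592 CPM at the higher dose, set by lower dose replicate 2. The counts of these entries are uncertain, since the handling of reads with several matches is not given in the sources used here.

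Among the remaining genes of large fold TSPAN8, a tetraspanin, was measured at 20.4, 24.0 and 23.7 CPM at the lower dose and 24.1, 30.3 and 34.5 CPM at the higher dose, and PARM1, a mucin-like membrane protein, at 62.6, 47.5 and 55.8 CPM at the lower dose and 59.0, 72.8 and 85.0 CPM at the higher dose. NAALAD2, a peptidase, was measured at 10.5, 11.5 and 10.6 CPM at the lower dose and 12.2, 12.8 and 16.3 CPM at the higher dose. In TSPAN8, PARM1 and NAALAD2 the highest value was that of higher dose replicate 3, and leaving that library out brought their log2 fold changes to 0.26, 0.25 and 0.20. SOCS3 and KLF4, given above, were lower in all 3 higher dose libraries than in any lower dose library.

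The remaining lists held no member past the adjusted threshold, and some of their members of smallest p are given on the log2 scale. Among receptors and adaptors, IGF2R, which clears IGF2, lay at -0.062 ± 0.043 and the docking protein GAB1 at 0.13 ± 0.096. Of the MAPK pathway, the kinases RPS6KA2 and RPS6KA3 lay at -0.11 ± 0.062 and 0.077 ± 0.053. In the TGF-beta family, with 14 of 30 members above 0, the coreceptor TGFBR3 was measured at 16.2, 15.6 and 15.1 CPM at the lower dose and 16.9, 17.1 and 20.2 CPM at the higher dose, and the BMP target ID3 lay at 0.13 ± 0.056. At an unadjusted p under 0.05, 2 members of this family were higher and 2 lower (2.52% and 3.17% of all genes were), and 0 without lower dose replicate 2. Its median of -0.014 ran from -0.018 without lower dose replicate 1 to 0.012 without lower dose replicate 3. For autophagy and the lysosome, with 12 of 30 above 0, ATG12 was measured at 33.6, 38.0 and 34.0 CPM at the lower dose and 39.5, 38.2 and 39.1 CPM at the higher dose, while the cargo receptor SQSTM1 lay at -0.10 ± 0.048 and the protease CTSD at -0.087 ± 0.045. In the antioxidant list, with 12 of 24 above 0, KEAP1, the sensor that degrades NRF2, lay at -0.13 ± 0.062 and TXNRD1 at 0.072 ± 0.047.

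Stress and folding genes spanned a narrow range. The small heat shock protein HSPB1 was measured at 591, 523 and 515 CPM at the lower dose and 501, 509 and 497 CPM at the higher dose, with no overlap, and the cochaperones CHORDC1 and DNAJB4 lay at 0.12 ± 0.080 and 0.091 ± 0.061. HERPUD1 and CRELD2 of the unfolded protein response lay at -0.097 ± 0.051 and -0.10 ± 0.056, and the proteasome genes PSMC3, PSMB3 and PSMC2 at -0.095 ± 0.068, -0.083 ± 0.060 and 0.058 ± 0.046. Of the respiratory chain, NDUFV2, a subunit of complex I, was measured at 54.8, 57.6 and 55.8 CPM at the lower dose and 58.5, 61.7 and 63.5 CPM at the higher dose, and NDUFA10 lay at 0.095 ± 0.049. The lipases MGLL and PNPLA2 lay at -0.19 ± 0.093 and -0.082 ± 0.051. Among ribosomal protein genes RPL13 and RPLP1 lay at -0.080 ± 0.045 and -0.079 ± 0.045, and of ribosome biogenesis NOP58 lay at 0.16 ± 0.074 and HEATR1 at 0.082 ± 0.052.

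Further members of the lists are given on the log2 scale. LIG1 of DNA synthesis lay at -0.14 ± 0.086, the mitotic kinesin KIF2C at -0.13 ± 0.065 and the CDK inhibitor CDKN1B at -0.10 ± 0.064. The MHC class I loading factor TAPBP lay at -0.081 ± 0.051. The laminin LAMA1 lay at -0.11 ± 0.050 and the proteoglycan BGN at -0.14 ± 0.073. TEAD2, ANKRD1 and TEAD1 lay at 0.16 ± 0.083, 0.080 ± 0.048 and 0.075 ± 0.045, and the cargo receptors TMED1 and TMED5 at -0.15 ± 0.091 and 0.068 ± 0.060. Of 20 listed histone genes 7 passed the count minimum, and the linker histone H1-2 lay at 0.32 ± 0.14 and H2BC4 at -0.29 ± 0.19.

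Lists for other cell types held a few members with small p. PDGFRA, a receptor of mesenchymal cells, was measured at 51.8, 45.9 and 52.0 CPM at the lower dose and 52.8, 60.7 and 67.5 CPM at the higher dose, with no overlap, and MCAM at 744, 722 and 714 CPM at the lower dose and 708, 662 and 635 CPM at the higher dose. The fibroblast and smooth muscle list had 6 of 10 tested members above 0 and a summed level of 1635 to 1864 CPM at the lower dose and 1612 to 1776 CPM at the higher dose. ACTA2, smooth muscle actin, was measured at 487, 344 and 368 CPM at the lower dose and 451, 403 and 399.7 CPM at the higher dose, with lower dose replicate 1 the highest. RGS5, a pericyte gene, lay at 0.18 ± 0.095. Of the epithelial list 14 of 20 were tested and 6 stood above 0, with the junction genes CLDN1 and TJP1 at -0.12 ± 0.070 and 0.085 ± 0.054 and the keratin KRT7 at -0.15 ± 0.094. NR2F2, a theca and stroma factor, lay at 0.047 ± 0.059.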

How the data were processed

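RNA sequencing of 9 libraries (3 groups of 3) was used, and the groups come from the sample labels. The authors deposited raw read counts per gene symbol and FPKM values for the same libraries. The submitters' processing notes list Trimmomatic, HTSeq and DESeq, with no version, and the build hg38. Which aligner, annotation and strand setting were used, and how reads with several matches were handled, is not given in the sources used here. Libraries were made from TRIzol-extracted total RNA with a VAHTS Universal V6 kit, per the labels' protocols. The deposited FPKM values are the counts rescaled by a fixed gene length (checked in 11053 of 11053 genes, with a relative spread under 1e-06) and served only for levels per length.

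Genes with at least 10 counts in 3 of the 6 insulin libraries were fitted with edgeR 4.0.16 (TMM scaling, quasi-likelihood F-test, all 9 libraries in one model, contrast higher minus lower dose), with Benjamini-Hochberg adjustment over 12585 genes and a threshold of 0.05. All tests are two-sided. A standard error is the size of the log2 fold change over the root of its F value, and 95% intervals follow from the t distribution with the degrees of freedom of the fit (median 19.5). The common biological coefficient of variation was 5.38%. Log2 CPM for scores used a prior count of 2. Totals ran from 18965722 to 20446405 counts, so that 0 counts in the smallest library leave room for 3 counts or 0.158 CPM, counting error only. The scripts were tested on simulated counts.

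Named genes were the 12 per direction of smallest p with at least 2 CPM and no overlap, the 4 per direction of largest fold with at least 10 CPM, INSR, IGF1R, IRS1 and IRS2, up to 3 members of smallest p per list with 5 or more tested members, genes called under an alternative and 6 cell type markers; some genes that the rule picks are not reported here. The 41 lists hold 995 symbols, of which 910 were tested, 55 were under the minimum and 30 matched no row; lists share some members. The genes, lists and tests were chosen with earlier results of these data known, so a list's direction is not independent evidence. Positions are from GENCODE 29 (GRCh38; 97.3% of the symbols matched) and promoters from RefSeq GRCh38.p14. Transcripts count as shared where they align at 95% identity or more over at least 100 bases. Shared parts are not given above for every named gene. NDUFV2 shared 75.4%, CTSD 61.5%, TMED1 58.1%, SQSTM1 53.2% and DDIT4 48.7% of its transcript with another entry, and their counts are uncertain too. Alternatives were DESeq2 1.42.0, RLE size factors, library totals alone, no count filter, a filter of 1 CPM, the 6 insulin libraries alone, the replicate number as a block and each library left out.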

Additional observations from a re-analysis of the deposited data

How the results depend on the processing

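No alternative of tool, scaling, stricter filter, libraries fitted or replicate block called a gene. With no count filter 4 genes were called: CBSL higher, and LOC107987373, VAMP7 and RRAD lower, RRAD with an adjusted p of 0.0463 (edgeR); LOC107987373 and VAMP7 rest on lower dose replicate 2, and CBSL was high in higher dose replicates 1 and 3 and control replicate 3. Leaving out each of the 9 libraries gave 0 to 2 called genes and 442 to 946 genes at an unadjusted p under 0.05, the fewest without higher dose replicate 3. The 2 calls without lower dose replicate 1 were NDRG1 and TRIM22, and without lower dose replicate 3 LOC107987373 was called, at a log2 fold change of -3.40 with an adjusted p of 0.0264. Genes with no overlap numbered 2519 to 3305 with 3 libraries against 2. The share of genes with an interval within 1.5-fold was 70.99% with no filter, 91.97% at 1 CPM and 85.69% to 86.1% with a library left out, where fewer samples widen the interval. The direction turned when single libraries were left out for 8 named genes, whose log2 fold changes then ran from -1.36 to 2.53 (CD99-2), -0.14 to 0.0030 (INSR), -0.089 to 0.025 (IGF1R), -0.025 to 0.087 (IRS1), -0.072 to 0.073 (FOXL2), -0.056 to 0.21 (AMH), -0.00091 to 0.25 (STAR) and -0.033 to 0.23 (ACTA2). The causes were not tested. The replicate number as a block gave 0 called genes and 891 (9 libraries) or 783 (6 libraries) at an unadjusted p under 0.05. Same-numbered libraries of the doses deviated together with correlations of 0.059, -0.018 and 0.028, so the numbers were not taken as pairs between the doses. Control was not part of this check. By chi-square per degree of freedom, same-numbered control and higher dose libraries differed by 2.86, 3.67 and 2.64. Same-numbered control and lower dose libraries differed by 7.19, 3.31 and 6.26, and control libraries from each other by 3.83 to 6.73. Whether control and higher dose libraries share a structure by replicate number was not tested. Depth limits the comparison for genes under 10 CPM, as the shares by level show.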
